A study of Mus musculus with 21 samples.

Results

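The receptors described here carry feeding peptides and related signals in the ventral hypothalamus (VH): the melanocortin receptors Mc4r and Mc3r, the neuropeptide Y receptors Npy1r, Npy5r and Npy2r, the ghrelin receptor Ghsr, the glucagon-like peptide 1 receptor Glp1r, the calcitonin and amylin receptor Calcr, the melanin-concentrating hormone receptor Mchr1 and the cannabinoid receptor Cnr1. They were picked by symbol, and all 10 were found among the 21654 genes of the deposited count table. Male C57/B6J mice, 12 to 14 weeks old at the start, ate regular chow (RC) or a high-fat diet (HFD). Some then had a diet switch (DS) a week before the tissue was taken, and the others had none (NoDS). RC NoDS (n = 5 libraries) and HFD NoDS (n = 5) stayed on their diet, RC → HFD (n = 6) went from chow to the high-fat diet, and HFD → RC (n = 5) went the other way. All mice were kept awake for 3 hours with unfamiliar objects before they were killed in the middle of the light phase. Punches were cut from the frozen brains, and each library was made from RNA of 2 pooled mice, so no value belongs to a single animal. Library counts summed to between 16380781 and 16390598 reads.

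Neurons of the arcuate nucleus that make Npy and Agrp promote feeding, and those that make Pomc restrain it. Melanocortin peptides cut from Pomc activate Mc4r and Mc3r, and Agrp blocks both. Npy acts on Npy1r and Npy5r to promote feeding, and on Npy2r, which sits largely on the Npy neurons themselves and dampens their release. Ghrelin from the stomach acts on Ghsr, which is abundant on Agrp and Npy neurons and signals in part without its ligand. Every receptor of the 10 couples to G proteins, and receptor mRNA does not report receptor protein or signalling.

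All 10 receptor genes passed the High Filter of at least 50 reads on average over the 21 libraries, and were tested among 12768 genes. Between genes, levels were compared as counts per 1000000 reads (CPM) per kilobase of exon, with Ensembl exons on the mm9 genome. Cnr1 was highest at 16.6 CPM per kilobase, followed by Npy2r (14.7), Calcr (11.1), Mc3r (10.1), Npy1r (9.85), Mchr1 (8.62) and Glp1r (7.31). Npy5r (3.81), Ghsr (3.38) and Mc4r (1.81) made up the low end. The step down from Glp1r to Npy5r held in 20 of 21 libraries, that from Npy2r to Calcr in 19 and that from Ghsr to Mc4r in 19. The steps between Mc3r and Npy1r, in 12 of 21 libraries, and between Cnr1 and Npy2r, Calcr and Mc3r, Npy1r and Mchr1, and Mchr1 and Glp1r, in 14 each, and Npy5r and Ghsr, in 16, were smaller than their spread between libraries. The order was the same with the longest transcript as the length.

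**Figure D1:**
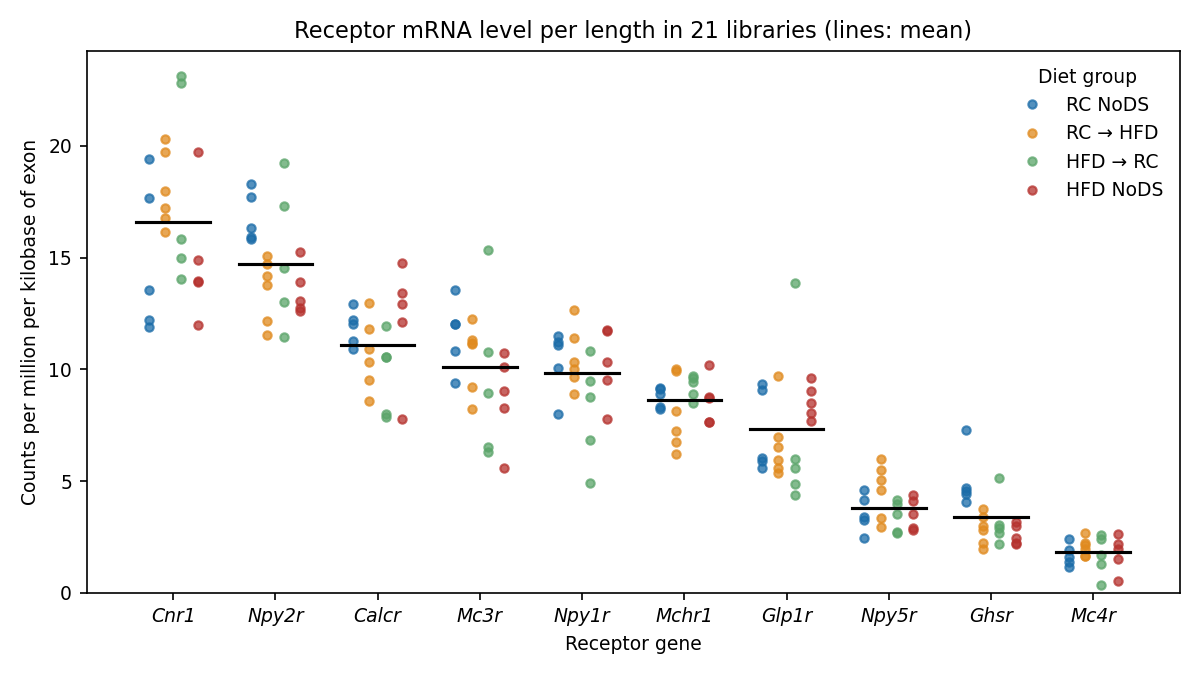
Level of each receptor gene as CPM per kilobase of exon in each of the 21 libraries, coloured by diet group and ordered by the mean. Mean levels run from 16.6 for Cnr1 to 1.81 for Mc4r, and the points of neighbouring receptors overlap.

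The 10 genes lie on 8 chromosomes, and none shares exon bases with another annotated gene. Mc4r (chromosome 18, 67017369 to 67020126) and Mc3r (chromosome 2, 172073992 to 172076614) each have 1 exon. Npy1r (69221321 to 69230697, plus strand) and Npy5r (69203864 to 69211993, minus strand) lie back to back on chromosome 8, with 9328 bases between their starts. Their levels in the 21 libraries had a Pearson r of 0.32. Npy2r (82342305 to 82352008, minus strand) and Ghsr (27270273 to 27276932, plus strand) are far apart on chromosome 3. Glp1r is on chromosome 17 (31038785 to 31073455), Calcr on chromosome 6 (3635677 to 3714713), Mchr1 on chromosome 15 (81065929 to 81069393) and Cnr1 on chromosome 4 (34011568 to 34035806).

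The receptors differed in how tightly libraries of a group held together. The coefficient of variation within groups was lowest for Npy2r, at 12.7%, with Mchr1 close to it, against 38.5% for Mc4r, 33.1% for Glp1r and 26.4% for Ghsr. The counting error of reads alone came to between 1.56% (Cnr1) and 19.3% (Mchr1) of that variance. Cnr1, with 19.3%, varied more than genes of similar level, whose median was 9.86%, and stood at percentile 98.0 among them, while Mchr1 stood at percentile 8.20. Libraries also differed in how many weakly expressed genes went undetected. Of the 3116 genes averaging 5 to 50 reads, the share with a count of 0 ran from 1.12% to 7.22% in RC NoDS, 2.31% to 22.4% in RC → HFD, 5.68% to 31.9% in HFD → RC and 7.70% to 32.9% in HFD NoDS. Every HFD NoDS library was above every RC NoDS library. HFD NoDS replicate 20 and HFD → RC replicate 17 had the highest shares.

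No receptor gene passed an adjusted p of 0.15 in any comparison with edgeR. The comparison of stable diets, HFD NoDS v RC NoDS, asked what a long-held diet leaves in the VH. It called 0 of 10 receptors, against 0.0783% of all genes tested. At an unadjusted p under 0.05, 3 of 10 (Mc3r, Npy2r and Ghsr, each with a lower mean in HFD NoDS) stood beside 7.41% of all genes, and the values of 2 (Npy2r and Ghsr) did not overlap between the groups, beside 0.963%. The comparison after the DS, HFD → RC v RC → HFD, set mice moving in opposite directions side by side. It called 0 of 10 (0.00783% of all genes), with 1 at the unadjusted threshold (Npy1r, beside 5.35%) and 0 without overlap (0.470%). DESeq2, limma-voom and limma-trend also gave 3 and 1 receptors at an unadjusted p under 0.05 in these comparisons. The shares of all genes are those of edgeR, so the counts of the other tools are not results about the receptors. DESeq2 called Ghsr between the stable diets, and neither limma fit called a receptor.

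The remaining pairs give the effect of each DS and of each history. RC → HFD v RC NoDS called 0 of 10 receptors (0.0392% of all genes), with 2 (Npy2r and Ghsr) at an unadjusted p under 0.05 beside 6.51%, and the same 2 without overlap beside 1.15%. HFD → RC v RC NoDS called 0 (0.282%), with 2 (Npy1r and Ghsr) beside 8.10% and 0 without overlap beside 1.35%. HFD NoDS v RC → HFD called 0 (0.0157%), with 0 beside 7.49% and 0 without overlap beside 0.728%. HFD NoDS v HFD → RC called 0 (0.0705%), with 1 (Calcr) beside 7.93% and 0 without overlap beside 0.971%. In the same order, DESeq2 gave 2, 2, 0 and 1 receptors at the unadjusted threshold, limma-voom 3, 2, 1 and 2, and limma-trend 2, 3, 0 and 2. No share of all genes from these tools stands beside their counts, which are not results about the receptors. DESeq2 gave no adjusted p for the 10 receptors in RC → HFD v RC NoDS, and called 0 in the other 3. Comparisons with a group in common share its libraries and are not independent.

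Averaged over the groups, the current diet (RC → HFD and HFD NoDS v RC NoDS and HFD → RC) called 0 of 10 receptors (0.0470% of all genes), with 2 (Npy2r and Ghsr) at an unadjusted p under 0.05 beside 5.22%. The earlier diet called 0 (0.0705%), with 1 (Ghsr) beside 7.27%. The interaction of earlier and current diet called 0 (0.0313%), with 2 (Calcr and Cnr1) beside 8.84%. The test across all 4 groups called 0 (0.149%), with 2 (Npy2r and Ghsr) beside 7.97%. DESeq2, limma-voom and limma-trend each gave 2 receptors at the unadjusted threshold in these 4 tests, and DESeq2 called Ghsr across all 4 groups. All shares here are those of edgeR, and none stands beside the counts of the other tools. Over 10 genes, these shares amount to fewer than 1 gene in each comparison, and a count of 1 to 3 rests on few genes.

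**Figure D2:**
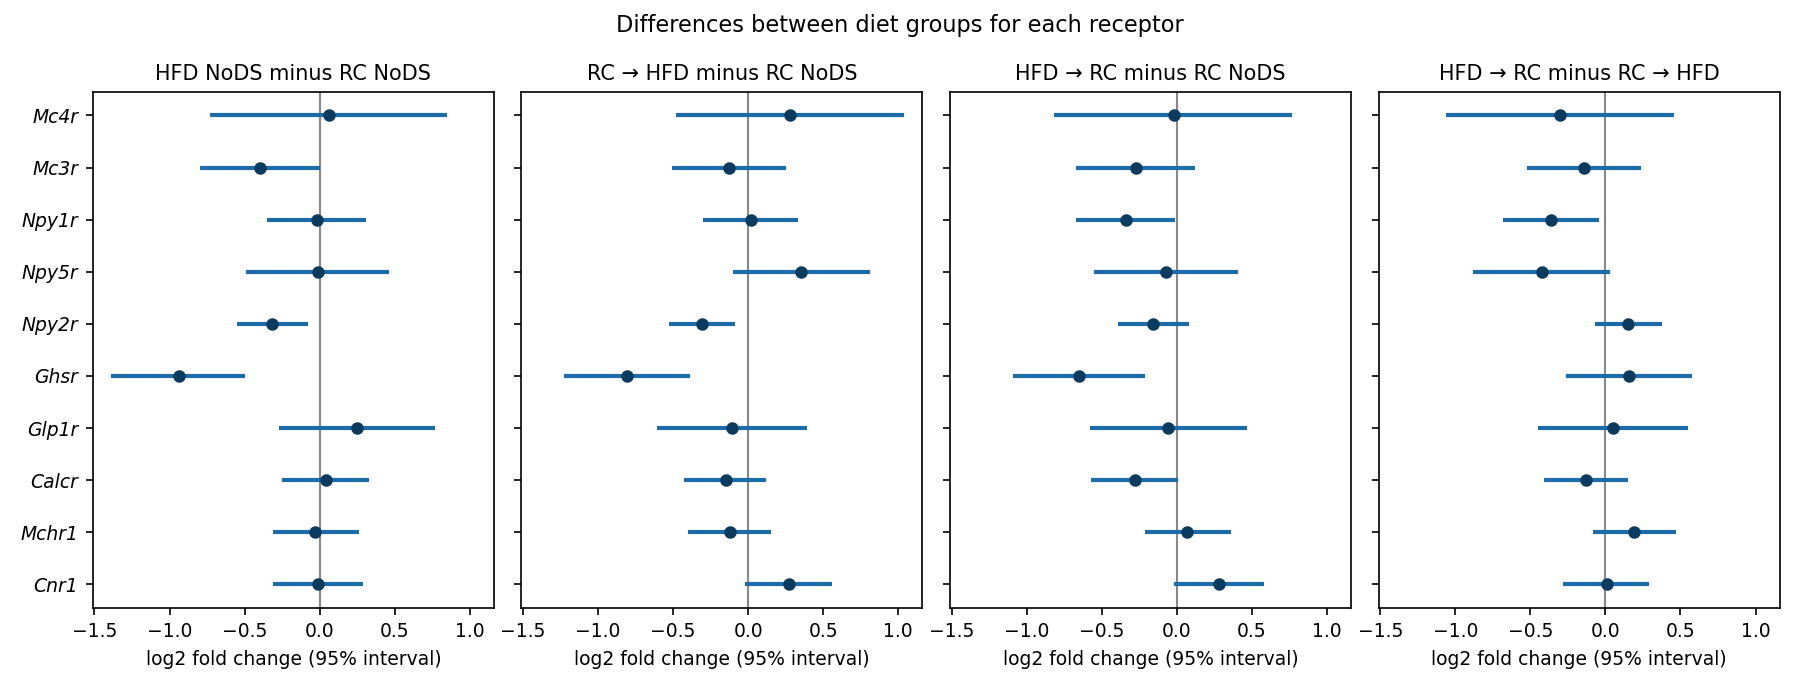
Log2 fold change of each receptor gene with its 95% interval from edgeR, in pairs of diet groups. The pairs are HFD NoDS, RC → HFD and HFD → RC, each v RC NoDS, and HFD → RC v RC → HFD. The intervals of Ghsr against RC NoDS lie farthest below 0.

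The intervals say how large a difference the data allow. Of the 60 combinations of receptor and pair of groups, 51 had a 95% interval that held 0, 55 had an interval inside a 2-fold change either way, and 35 inside a 1.5-fold change. For 8 receptors, all but Mc4r and Ghsr, the interval stayed inside a 2-fold change in every pair. Npy2r, Mchr1 and Cnr1 stayed inside a 1.5-fold change in all 6 pairs. The median of the 10 log2 fold changes was -0.01 between the stable diets, against 0.01 over all genes, and -0.06 between the DS groups, against 0.00.

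**Figure D3:**
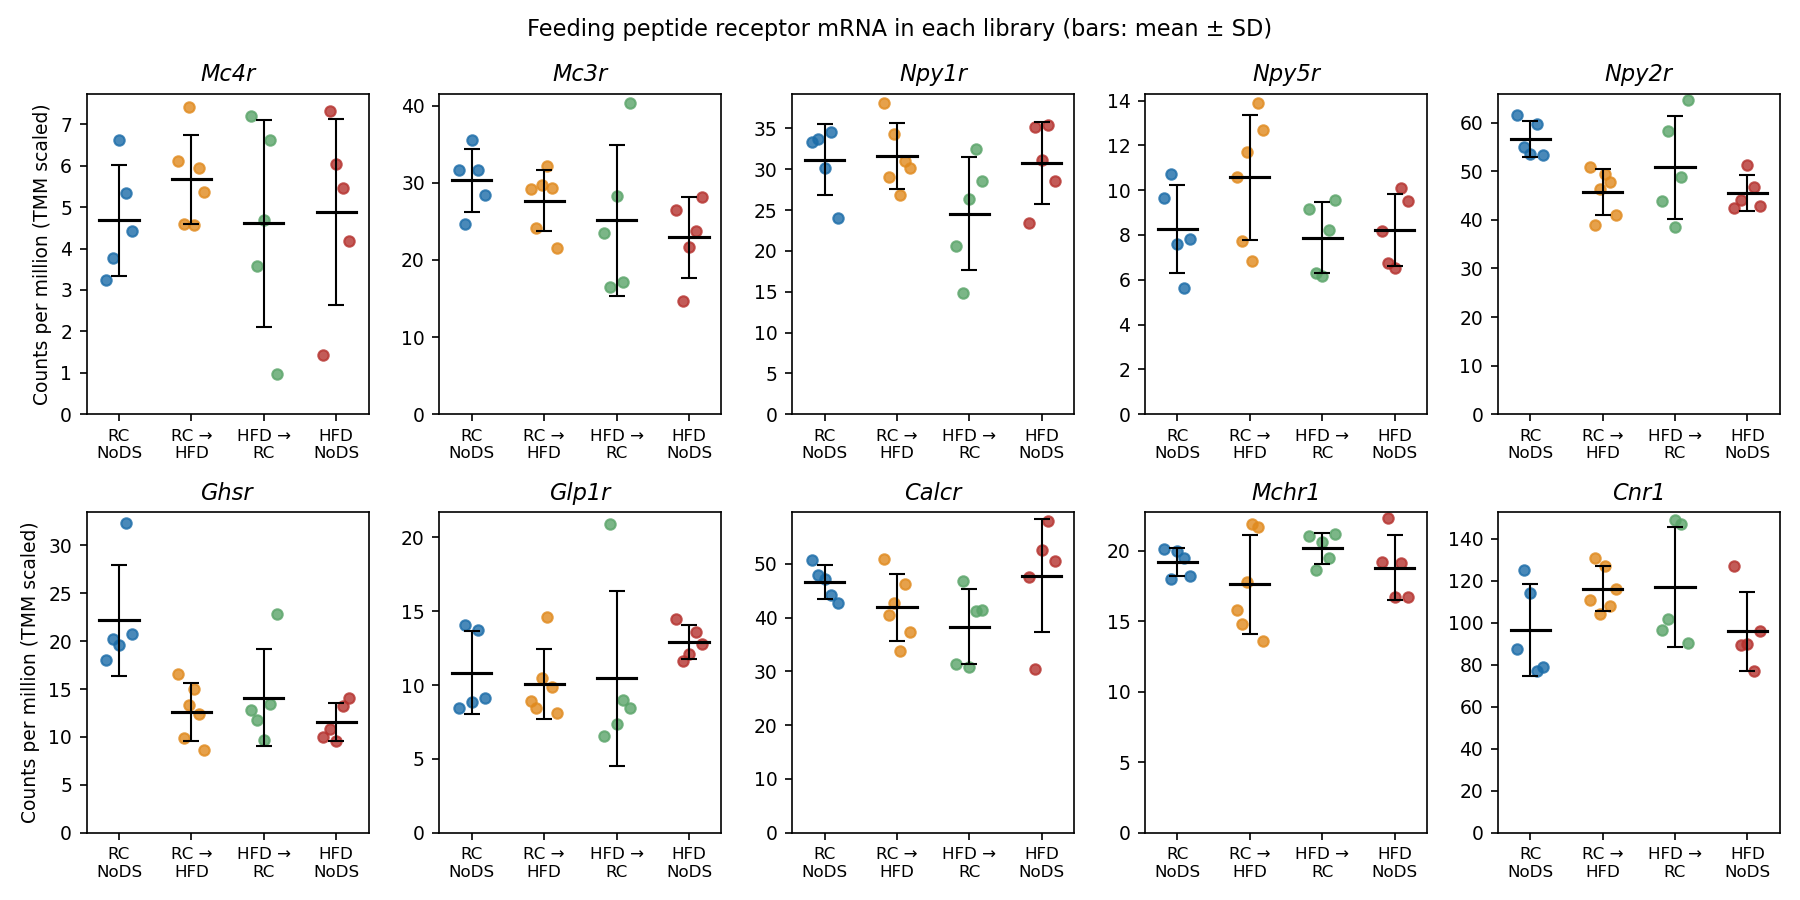
TMM-scaled CPM of the 10 receptor genes in every library of the 4 diet groups, with the group mean and SD. Ghsr averages 22.2 CPM in RC NoDS, where its highest library reaches 32.3, and lies between 9.63 and 14.1 in HFD NoDS.

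Ghsr, through which ghrelin stimulates feeding, showed the farthest separation of the 10. Its counts were 300, 336, 323, 527 and 341 reads in RC NoDS (replicates 1, 2, 3, 5 and 6) and 161, 173, 158, 217 and 232 in HFD NoDS (replicates 19, 20, 21, 23 and 24). All RC NoDS libraries were higher than all HFD NoDS libraries, with replicate 5 well above the rest of its group. In RC → HFD the counts ran from 139 through a median of 208.5 to 272, and in HFD → RC they were 209, 190, 156, 219 and 374 (replicates 13 to 17). RC → HFD also lay wholly below RC NoDS, whereas HFD → RC replicate 17 reached into the RC NoDS range and its other 4 libraries did not. Group means were 22.2 ± 5.76 CPM in RC NoDS, 11.5 ± 1.98 in HFD NoDS, 12.6 ± 3.01 in RC → HFD and 14.1 ± 5.07 in HFD → RC (± SD, n = 5, 5, 6 and 5). In bulk tissue, fewer cells of a type and less RNA per cell cannot be told apart.

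Between the stable diets, the Ghsr fold was 0.52 (95% interval 0.38 to 0.71), a log2 fold change of -0.94 with an SE of 0.22. Its unadjusted p of 1.6e-04 ranked 12 among 12768 genes, and its adjusted p of 0.18 from edgeR missed the threshold. For RC → HFD v RC NoDS the log2 fold change was -0.81 (SE 0.21, adjusted p 0.41), and for HFD → RC v RC NoDS it was -0.65 (SE 0.22, adjusted p 0.33). Among the 3 groups with any time on the high-fat diet, log2 fold changes were 0.16, -0.13 and -0.29, with intervals that held 0. The interval of the last, HFD NoDS v HFD → RC, ran from -0.74 to 0.15, so it does not show that these groups were alike. Across all 4 groups F was 8.22 (adjusted p 0.19), and the interaction was 0.52 (SE 0.30, adjusted p 0.66).

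The call of Ghsr turned on the tool, on the groups fitted and on single libraries. Fitted to only the 2 groups compared, edgeR called Ghsr between the stable diets (adjusted p 0.14). That fit also called Ghsr for RC → HFD v RC NoDS (0.12, against 0.41 in the main fit, with the same log2 fold change of -0.81). DESeq2 called it between the stable diets (adjusted p 0.023, within a range of 0.023 to 0.56 over the alternatives) and across all 4 groups (0.020, range 0.020 to 0.56). In edgeR, leaving out HFD → RC replicate 17 called it between the stable diets (0.053), for HFD → RC v RC NoDS (log2 fold change -0.89, adjusted p 0.099, range 0.063 to 0.69) and across all 4 groups (0.065). Leaving out RC → HFD replicate 12 (0.12) or HFD → RC replicate 15 (0.14) called it between the stable diets, and leaving out HFD → RC replicate 16 across all 4 groups (0.11). Without HFD → RC replicate 17, the log2 fold change of HFD → RC v RC → HFD turned from 0.16 to -0.08. The log2 fold change between the stable diets stayed between -1.06 and -0.77 in all 32 alternatives.

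Ghsr moved against the pan-neuronal markers, and over all libraries its r with the share of undetected genes was also negative. The summed level of 8 of 8 pan-neuronal markers, of which Eno2 was the most abundant and none was at 0, averaged 3181 CPM in RC NoDS, 3549 in RC → HFD, 3519 in HFD → RC and 3405 in HFD NoDS. Over the 21 libraries its Pearson r with Ghsr was -0.70, and -0.63 without the 2 libraries farthest from the median of the sum, RC → HFD replicate 12 and HFD → RC replicate 15. With the share of genes at 0, r was -0.35, and 0.25 for deviations from group means. With that share as a covariate, the log2 fold change between the stable diets was -1.06 (adjusted p 0.27). The share was higher in every HFD NoDS library than in every RC NoDS library, so diet and share cannot be told apart there. The choroid plexus markers had r of 0.57 with Ghsr, and 0.65 without the 2 libraries farthest in their sum, HFD → RC replicates 14 and 16. Most of that sum was Clic6 (51.6 CPM), which is also expressed outside the choroid plexus, and the defining marker Ttr averaged 2.07 CPM. Oligodendrocyte markers, of which 8 of 8 were higher in HFD NoDS v RC NoDS at an unadjusted p under 0.05, had r of -0.41 with Ghsr. It was -0.43 without the 2 libraries farthest in their sum, HFD → RC replicates 13 and 14. The part of the neuronal, choroid plexus and oligodendrocyte markers in the result was not tested.

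Npy2r, the autoreceptor of the Npy neurons, had counts of 1029, 916, 883, 974 and 878 in RC NoDS and of 687, 704, 842, 771 and 708 in HFD NoDS. The groups did not overlap, and the gap between the lowest RC NoDS and the highest HFD NoDS library was small. RC → HFD counts ran from 636 through 763.5 to 831, and HFD → RC counts were 712, 941, 618, 798 and 1060. RC → HFD lay below RC NoDS without overlap, and HFD → RC covered the whole range of the other groups. The log2 fold change was -0.32 (SE 0.11, adjusted p 0.64) between the stable diets, -0.31 (SE 0.11, adjusted p 0.67) for RC → HFD v RC NoDS and -0.23 (SE 0.08, adjusted p 0.77) for the current diet. Across all 4 groups F was 3.60, with an unadjusted p of 0.026 and an adjusted p of 0.56 in edgeR. In all the alternatives the first 3 of these differences kept their direction. The pan-neuronal sum had r of -0.69 with Npy2r and the tanycyte and ependymal sum 0.57, and 5 of 10 tanycyte and ependymal markers were lower at an unadjusted p under 0.05 in RC → HFD v RC NoDS. The part of these markers in the Npy2r values was not tested.

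Npy1r, which carries much of the feeding response to Npy, had counts of 336, 240, 423, 530 and 467 in HFD → RC against 433 to 623 (median 492) in RC → HFD. HFD → RC replicates 13, 14 and 15 were below every RC → HFD library, and replicates 16 and 17 were within their range. The log2 fold change was -0.36 (SE 0.16, adjusted p 0.90), and against RC NoDS, with counts of 556, 561, 497, 565 and 395, it was -0.34 (SE 0.16, adjusted p 0.60). Leaving out each library moved these values between -0.48 and -0.23 and between -0.46 and -0.21. In these comparisons 7 of 8 and 8 of 8 oligodendrocyte markers were higher at an unadjusted p under 0.05, of which edgeR called 0 and 4, and their part in the Npy1r values was not tested. Npy5r, its neighbour on chromosome 8, averaged 8.28 ± 1.96 CPM in RC NoDS, 8.22 ± 1.62 in HFD NoDS, 10.6 ± 2.79 in RC → HFD and 7.89 ± 1.58 in HFD → RC (± SD, n = 5, 5, 6 and 5). Its largest difference, in HFD → RC v RC → HFD, was -0.42 (SE 0.22, adjusted p 0.96), and the groups overlapped in every pair.

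Mc4r, the melanocortin receptor whose loss causes obesity, was scarce and scattered. Its counts were 54, 63, 109, 87 and 73 in RC NoDS, 74 to 121 (median 91) in RC → HFD, 117, 58, 75, 108 and 16 in HFD → RC, and 23, 117, 99, 90 and 69 in HFD NoDS. HFD → RC replicate 17, with 16 reads, and HFD NoDS replicate 19, with 23, were lower than all the others, and every group overlapped with every other. Log2 fold changes between pairs lay between -0.30 and 0.28 with SEs of 0.37 to 0.39, so a 1.5-fold difference was within the interval of every pair. Leaving out each library moved HFD → RC v RC → HFD between -0.52 and -0.04, and HFD NoDS v RC NoDS between -0.13 and 0.30.

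Mc3r, which tunes energy storage and the timing of meals, had counts of 527, 410, 584, 515 and 468 in RC NoDS and 429, 236, 356, 390 and 466 in HFD NoDS. Only 2 HFD NoDS libraries, replicates 19 and 24, reached into the RC NoDS range. In HFD → RC the counts were 383, 266, 454, 279 and 660, with the highest count of all libraries in replicate 17, and in RC → HFD they ran from 346 through 474.5 to 522. The log2 fold change between the stable diets was -0.40 (SE 0.19), with an unadjusted p of 0.048 and an adjusted p of 0.67 in edgeR. Mc3r had r of 0.82 with the summed level of 7 of 7 choroid plexus markers, and 0.73 without the 2 libraries farthest in that sum, HFD → RC replicates 14 and 16. That sum averaged 78.4 CPM in RC NoDS, 76.8 in RC → HFD, 69.7 in HFD → RC and 70.2 in HFD NoDS. Clic6, which is also expressed outside the choroid plexus, made up most of it at 51.6 CPM. The defining marker Ttr averaged 2.07 CPM, and 5 of the 7 markers were at 0 in some libraries. Oligodendrocyte markers, of which 8 of 8 were higher in HFD NoDS v RC NoDS at an unadjusted p under 0.05, had r of -0.51 with Mc3r. The part of both sets of markers in the Mc3r values was not tested.

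Glp1r, the target of satiety signals of the glucagon-like peptide 1 type, had counts of 185 to 235 in all HFD NoDS libraries, against 107, 337, 118, 147 and 138 in HFD → RC. HFD → RC replicate 14, with 337 reads, was the highest of all libraries, and the other 4 were below every HFD NoDS library. The log2 fold change of HFD NoDS v HFD → RC was 0.31 (SE 0.25, adjusted p 0.80), and 0.72 without replicate 14 or 0.18 without HFD → RC replicate 13. Against RC → HFD, with counts of 130 to 236, HFD → RC stood at 0.05 (SE 0.24). Leaving out replicate 14 turned that to -0.36 and the earlier diet from 0.15 to -0.06. In HFD NoDS v HFD → RC, 6 of 12 arcuate markers (with 2 lower) and 3 of 10 tanycyte and ependymal markers were higher at an unadjusted p under 0.05. Glp1r had r of 0.60 and 0.61 with their sums, and their part in its values was not tested.

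Calcr, which amylin uses together with receptor activity-modifying proteins, had counts of 769, 487, 863, 953 and 836 in HFD NoDS and 510, 757, 494, 675 and 679 in HFD → RC. All HFD NoDS libraries but replicate 20 were above all HFD → RC libraries, and replicate 20 had the lowest count of all 21. The log2 fold change was 0.32 (SE 0.14, adjusted p 0.60). Group means were 46.6 ± 3.15 CPM in RC NoDS, 47.8 ± 10.4 in HFD NoDS, 41.9 ± 6.20 in RC → HFD and 38.4 ± 7.01 in HFD → RC (± SD, n = 5, 5, 6 and 5). Both NoDS groups thus had higher means than both DS groups, which is what the interaction compares. It was 0.47 (SE 0.20, adjusted p 0.47), and 0.60 with an adjusted p of 0.14, a call, without HFD NoDS replicate 20 (range 0.12 to 0.69 over the alternatives). Over the 21 libraries Calcr had r of -0.67 with the pan-neuronal sum and -0.62 with the summed ventromedial markers, and -0.58 and -0.40 without the 2 libraries farthest in each sum. At an unadjusted p under 0.05, 4 of 8 pan-neuronal and 5 of 8 ventromedial markers had negative interactions, and 4 of 10 tanycyte and ependymal and 4 of 12 arcuate markers had positive ones, beside 8.84% of all genes. EdgeR called 0 of them, and their part in the Calcr interaction was not tested. Mchr1, the only melanin-concentrating hormone receptor of the mouse, had group means of 19.2, 17.6, 20.1 and 18.8 CPM in RC NoDS, RC → HFD, HFD → RC and HFD NoDS. Its log2 fold changes between pairs lay between -0.12 and 0.19, with SEs of 0.13 and 0.14.

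Cnr1, which responds to endocannabinoids and damps transmitter release, ran the other way from Calcr in the interaction. Its counts were 1459, 2079, 1871, 1254 and 1296 in RC NoDS and 2049, 1435, 1475, 1269 and 1583 in HFD NoDS. In RC → HFD they ran from 1693 through 1839 to 2147, and in HFD → RC they were 1571, 1644, 2381, 2398 and 1482. High libraries occurred in every group, all groups overlapped, and the lowest RC → HFD library was above 3 of 5 libraries in RC NoDS and 4 of 5 in HFD NoDS. Group means were 96.3 ± 21.7 CPM in RC NoDS, 95.8 ± 18.5 in HFD NoDS, 116 ± 10.9 in RC → HFD and 117 ± 28.5 in HFD → RC (± SD, n = 5, 5, 6 and 5). The interaction was -0.56 (SE 0.20), with an unadjusted p of 0.010 and an adjusted p of 0.36 in edgeR.

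Cnr1 levels went with markers of the ventromedial nucleus, which borders the arcuate nucleus in such punches. The summed level of 8 of 8 markers, led by Gda, with none at 0, averaged 652 CPM in RC NoDS, 778 in RC → HFD, 759.8 in HFD → RC and 662 in HFD NoDS. The sum ran from 483 CPM in HFD NoDS replicate 23 to 1036 in HFD → RC replicate 15. Over 21 libraries r with Cnr1 was 0.84 and Spearman's rho 0.85. It was 0.79 for deviations from group means, and 0.77 without the 2 libraries farthest in the sum, HFD → RC replicate 15 and HFD NoDS replicate 23. Cnr1 also had r of 0.62 with the pan-neuronal sum, -0.58 with the arcuate sum and -0.67 with the tanycyte and ependymal sum. These were 0.55, -0.66 and -0.59 without the 2 libraries farthest in each sum. At an unadjusted p under 0.05, 5 of 8 ventromedial and 4 of 8 pan-neuronal markers had negative interactions, as Cnr1 did. The part of these 4 sets of markers in the Cnr1 interaction was not tested.

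**Figure D4:**
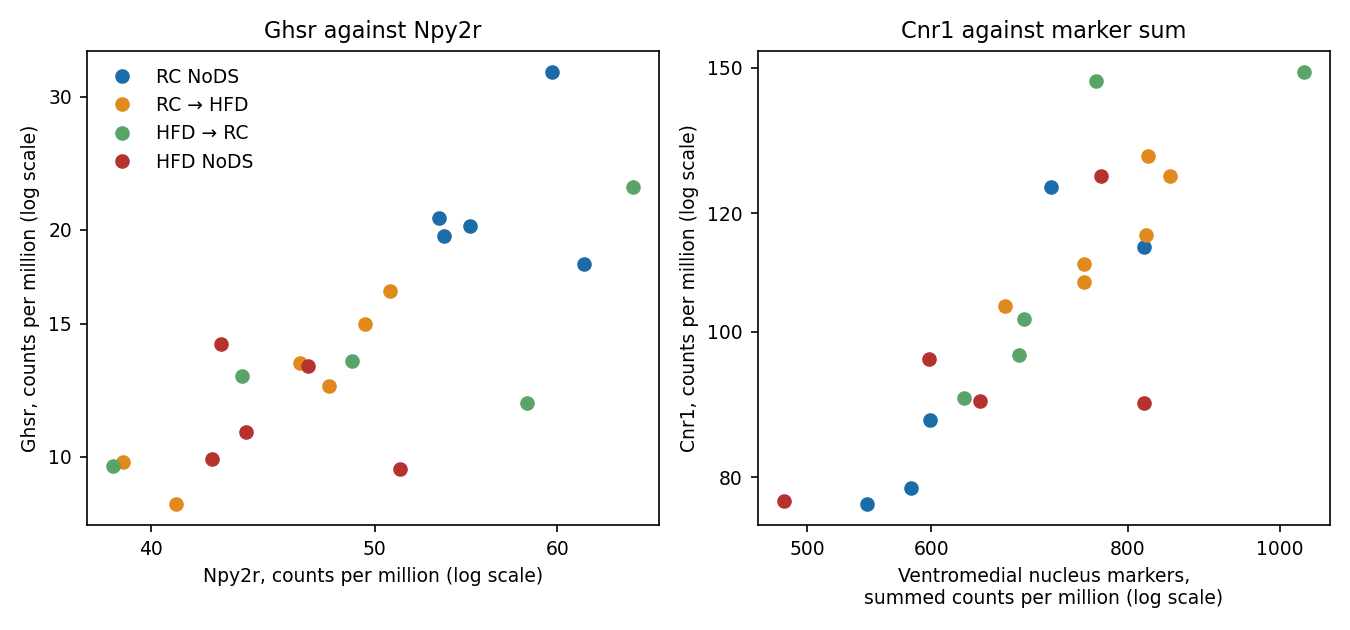
Relations over the 21 libraries between receptor genes and the genes or marker sums they went with, in CPM on log axes and coloured by diet group. Cnr1 against the summed ventromedial markers has r of 0.84, and Ghsr against Npy2r has r of 0.76.

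Most pairs of receptors did not go together over the libraries. Of 45 pairs, 23 had a positive Pearson r, with a median of 0.02 and a range from -0.47 (Npy2r and Cnr1) to 0.76 (Npy2r and Ghsr). Among the 12768 genes, Npy2r had the highest r with Ghsr, followed by Agrp (r 0.75) and Npy (0.74). These values were lower for deviations from group means, 0.61, 0.58 and 0.52, and were 0.69, 0.67 and 0.65 without RC NoDS replicate 5 and HFD → RC replicate 17. The ranking was particular to Pearson's r over all libraries, since these genes came at places 81, 125 and 274 by deviations and 6, 31 and 32 by Spearman's rho. The genes most like Npy2r were Npy (0.80), Agrp (0.79) and Tiparp (0.77), and the first kept 0.77 for deviations from group means. All are descriptions over 21 libraries that share diets.

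For the other receptors described, the most similar genes were not feeding peptides. For Cnr1 they were Rasgrf2 (0.90), Trim37 (0.90) and Ogfod1 (0.88), and 14 genes had an r above 0.8 with it, against 2 or fewer for the others. Mc3r went with Paox (0.85), 9030407P20Rik (0.82) and Cdc42se2 (0.79). For Npy1r they were Kctd12b (0.80), Tspan31 (0.74) and Lclat1 (0.71), of which the last pair dropped to 0.33 and 0.32 without HFD → RC replicates 13 and 14. Npy5r went with Copb2 (0.76), Sin3a (0.72) and Lnx1 (0.67), and Mchr1 with Chmp1a (0.79), Pkdcc (0.74) and Gramd4 (0.69). Glp1r went with Mybbp1a (0.79), Gart (0.77) and Dpy19l3 (0.71). Those of Mc4r, Card6 (0.76), Cd97 (0.76) and Uvrag (0.75), rested on HFD → RC replicate 17 and HFD NoDS replicate 19, without which r was 0.34, 0.38 and 0.20.

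Npy and Agrp changed in comparisons in which no receptor passed the test. Of 13 ligand genes, 7 passed the High Filter, and Pyy, Ghrl, Gcg, Iapp, Calca and Calcb, most of which are made outside the hypothalamus, did not. Npy averaged 292 ± 36.8 CPM in RC NoDS, 122 ± 25.3 in HFD NoDS, 118 ± 20.0 in RC → HFD and 226 ± 70.6 in HFD → RC (± SD, n = 5, 5, 6 and 5). In edgeR, Npy fell by 1.26 on the log2 scale between the stable diets (adjusted p 7.8e-05), where its autoreceptor Npy2r stood at -0.32 and Ghsr at -0.94. Npy was higher by 0.94 in HFD → RC v RC → HFD (adjusted p 0.012, but 0.53 with a robust dispersion and the same log2 fold change, range 0.0019 to 0.53), where Npy2r stood at 0.15, Npy1r at -0.36 and Npy5r at -0.42. Agrp, the blocker of Mc4r and Mc3r, fell by 1.24 in RC → HFD v RC NoDS (adjusted p 0.0015), where these receptors stood at 0.28 and -0.13. Between the stable diets Agrp fell by 0.97 (adjusted p 0.051). That call was lost without RC NoDS replicate 1 (0.17) or 5 (0.24), or HFD NoDS replicate 19 (0.23), 21 (0.23) or 24 (0.16), and with a robust dispersion (0.25), within a range of 0.0096 to 0.25 over the alternatives. In these fits its log2 fold change was between -0.97 and -0.85. Pomc, the precursor of the melanocortins, had a current-diet log2 fold change of 0.40 (SE 0.12, adjusted p 0.74).

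Of 20 genes that work with the receptors, for receptor partners, prohormone processing and ligand clearance, 17 were tested and 0 were called by edgeR in the 10 comparisons, with 0 to 3 at an unadjusted p under 0.05 in each, beside 5.22% to 8.84% of all genes. Mrap2, which assists Mc4r and Ghsr, averaged 60.3, 58.1, 56.9 and 53.3 CPM in RC NoDS, RC → HFD, HFD → RC and HFD NoDS. Ramp1, a partner of Calcr in amylin receptors, averaged 66.2, 71.8, 71.7 and 67.3 CPM in that order. Pcsk2, a convertase that trims Pomc products, had an interaction of -0.35 (SE 0.10, adjusted p 0.25). Of 28 genes for G proteins and signalling, 26 were tested and 1 was called in 1 comparison, with 1 to 8 at an unadjusted p under 0.05 in each. The 8 were in HFD NoDS v HFD → RC, beside 7.93% of all genes, with 3 higher and 5 lower, and the interaction had 7, beside 8.84%. The called gene was Arrb1, an arrestin that ends receptor signalling, which rose by 0.30 on the log2 scale (SE 0.07, adjusted p 0.145) in HFD → RC v RC NoDS. Leaving out 1 library ended this call in 13 of 21 cases: RC NoDS replicate 1, 2 or 5, RC → HFD replicate 7, 8, 9, 10 or 11, HFD → RC replicate 13, 14, 15 or 17, or HFD NoDS replicate 21. Its log2 fold change was then between 0.25 and 0.33 and the adjusted p between 0.16 and 0.46, within a range of 0.039 to 0.49 over the alternatives. The call was also lost in 7 of 11 other alternatives, among them limma-voom, limma-trend, both weaker filters and the fit without TMM.

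Of 57 other receptors for feeding signals, 55 were in the table and 40 were tested. EdgeR called 0 in the 10 comparisons, with 1 to 5 at an unadjusted p under 0.05 in each, beside 5.22% to 8.84% of all genes. The leptin receptor Lepr averaged 10.6 ± 3.04 CPM in RC NoDS, 9.89 ± 3.02 in HFD NoDS, 7.01 ± 1.84 in RC → HFD and 6.50 ± 2.32 in HFD → RC (± SD, n = 5, 5, 6 and 5). Its interaction of 1.20 (SE 0.38, adjusted p 0.28) had the sign of that of Calcr and was opposite to that of Cnr1. Crhr1, a receptor for corticotropin-releasing hormone, had a log2 fold change of 0.61 (SE 0.16, adjusted p 0.31) in HFD NoDS v HFD → RC. Prlr, the prolactin receptor, which is also an arcuate marker, had one of -0.54 (SE 0.18, adjusted p 0.31) in HFD → RC v RC NoDS.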

How the data were processed

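The deposited counts of reads per gene were used. The authors had aligned polyA-selected, stranded libraries to mm9 (STAR 2.5.1b and Picard 2.7.1 in the submitters' processing notes) and re-sampled each library to a common depth, which evens totals but not the number of distinct molecules. Genes averaging at least 50 reads were fitted with edgeR 4.0.16 (TMM, quasi-likelihood F-test, R 4.3.3), with 1 mean per group over 21 libraries. Two-sided p-values were adjusted over all 12768 genes by Benjamini-Hochberg, with a threshold of 0.15, and fold intervals are 95%. No paired analysis was possible because replicate numbers were not shared between groups. Alternatives used DESeq2 1.42.0, limma 3.58.1, other filters, scalings and dispersions, a covariate and left-out libraries. Likeness was Pearson's r of log2(CPM + 1), the 3 highest named for each receptor but Calcr. The receptors and gene lists were chosen with earlier results of these data known. The fits were tested on simulated data. Read counts give sampling error only. Exons came from an earlier Ensembl release on mm9 than the authors used.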

Additional observations from a re-analysis of the deposited data

Results flagged for a closer look

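In 3 of 44 groups of values tested (10 receptors and the share of undetected genes, in 4 diet groups), 1 library stood far from the rest of its group by Dixon's test. Chance marks about 1 in 20 groups. Ghsr was 32.3 CPM in RC NoDS replicate 5, against 20.7 or less in the other 4 libraries. Ghsr was 22.8 CPM in HFD → RC replicate 17, against 9.73 to 13.4 in the others. Glp1r was 20.9 CPM in HFD → RC replicate 14, in a group with a median of 8.42 and a lowest value of 6.58.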

How the results depend on the processing

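In 24 of 32 alternatives, 0 receptors were called in any comparison. Of 90 log2 fold changes, 59 kept their sign in every alternative, and the other 31 had a size of at most 0.22. 1 receptor at most was called, always Ghsr but for the interaction, where it was Calcr: 1 between the stable diets with DESeq2 and in the fit of only the 2 groups compared, 1 for RC → HFD v RC NoDS in the latter, and 1 across all 4 groups with DESeq2. Leaving out each library gave 0 to 1 between the stable diets, for HFD → RC v RC NoDS, for the interaction and across all 4 groups. Leaving out both HFD → RC replicate 17 and HFD NoDS replicate 20, chosen after seeing the data for their shares of undetected genes, gave 1 in each of these and 1 for RC → HFD v RC NoDS. At an unadjusted p under 0.05, that fit gave 2 receptors between the stable diets (3 in the main fit), 3 for HFD → RC v RC → HFD (1), 6 for HFD → RC v RC NoDS (2) and 5 across all 4 groups (2). All-gene calls of that fit, in the same order, were 11 (10 in the main fit), 2 (1), 137 (36) and 45 (19). At the same threshold, the share of undetected genes as a covariate gave 2 between the stable diets (3 in the main fit). It gave 3 each for RC → HFD v RC NoDS (2), HFD → RC v RC NoDS (2) and across all 4 groups (2), and 1 for the interaction (2). With the covariate, the other comparisons kept their counts. With both libraries left out, counts also rose to 1 for HFD NoDS v RC → HFD (0) and 2 for HFD NoDS v HFD → RC (1). In that fit they also rose to 3 for the earlier diet (1 in the main fit) and for the interaction (2). No share of all genes at the unadjusted threshold stands beside the counts of these fits, so they are not results about the receptors.

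Some differences that were not called reversed. For HFD → RC v RC → HFD, leaving out each library moved Ghsr between -0.08 and 0.27 and Glp1r between -0.36 and 0.19. For HFD NoDS v HFD → RC it moved Mc3r between -0.25 and 0.11, and for the earlier diet Glp1r between -0.06 and 0.22. With both libraries left out, Ghsr was -0.08 in HFD → RC v RC → HFD, Mc4r -0.37 and Mc3r 0.23 in HFD NoDS v HFD → RC, and Mc3r 0.05 for the current diet. The causes were not tested.

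All-gene counts moved more. They were 10 (5 to 17 over the alternatives) between the stable diets, 1 (0 to 41) for HFD → RC v RC → HFD, 5 (4 to 96) for RC → HFD v RC NoDS, 36 (1 to 205) for HFD → RC v RC NoDS, 2 (1 to 32) for HFD NoDS v RC → HFD, 9 (1 to 44) for HFD NoDS v HFD → RC, 6 (4 to 12) for the current diet, 9 (2 to 70) for the earlier diet, 4 (0 to 191) for the interaction and 19 (9 to 133) across all 4 groups. The fit of 2 groups gave no values for the last 4.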

Other observations

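The punches held arcuate and ventromedial tissue in every library. The summed level of 12 of 12 arcuate markers, led by Pomc, ran from 926 to 1726 CPM, and Glp1r had r of 0.60 with it. Paraventricular markers (7 of 7, led by Avp) ran from 362 to 1991 CPM, dorsomedial markers (6 of 7, led by Gpr50) from 79.8 to 176, and lateral hypothalamic markers (5 of 5, led by Pdyn) from 332 to 523. In the lateral hypothalamic sum Pdyn averaged 247 CPM, while Pmch ran more widely, from 16.6 to 137 CPM. Tanycyte and ependymal markers (10 of 10, led by Col25a1) ran from 446 to 647 CPM, with r of -0.67 with Cnr1 and 0.61 with Glp1r.

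Among other cell types, oligodendrocyte markers (8 of 8, led by Mbp) ran from 2329 CPM in RC NoDS replicate 1 to 8714 in HFD → RC replicate 14, with means of 2870, 3367, 5457 and 4416 in RC NoDS, RC → HFD, HFD → RC and HFD NoDS. At an unadjusted p under 0.05, 8 of 8 were higher in HFD NoDS v RC NoDS, with 0 called by edgeR, and 8 of 8 in HFD → RC v RC NoDS, with 4 called. Their r with Npy1r was -0.55, but -0.01 without HFD → RC replicates 13 and 14, on which it rested. With Mc3r it was -0.51, and -0.36 without the same libraries. Astrocyte markers (8 of 8, led by Aldoc) ran from 3256 to 4025 CPM, microglial markers (8 of 8, led by Csf1r) from 378 to 537, and endothelial and pericyte markers (8 of 8, led by Flt1) from 173 to 226. Some lists overlap: Agrp, Npy and Pomc are arcuate markers and ligands, Pmch is a lateral hypothalamic marker and a ligand, and Brs3 and Prlr are markers and feeding receptors. Gpr50 and Nptx2 are each in 2 marker lists.

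HFD → RC replicate 17 had the lowest Mc4r count and the highest Mc3r and Npy2r counts, and HFD NoDS replicate 20 had the lowest Mc3r and Calcr counts and the highest Mchr1 count. RC NoDS replicate 5 had the lowest Npy5r and Cnr1 counts and the highest Ghsr count.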
